A study of Mus musculus with 2 samples.

Results

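The cluster that the authors named early neuroblasts (eNB) was the largest of 12 in a single-cell RNA sequencing data set of the adult mouse dentate gyrus (DG). It held 2169 of the 10804 cells, or 20.1% (19.3 to 20.8, exact binomial 95% interval). Its cells were those of the table that the authors deposited under this name, and cells were neither added nor removed. The authors had formed their clusters from the cells' expression. The WT library gave 1059 of these cells, or 19.1% (18.1 to 20.2) of the library, and the iKD library gave 1110, or 21.1% (20.003 to 22.2).

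Both libraries came from EYFP+ cells sorted by flow cytometry from mechanically dissociated dentate gyri, 1 library per genotype, each from 5 pooled mice of both sexes. The WT mice were NestinCreERT2;VEGFWT/WT;ROSA-STOP-EYFP and their iKD littermates NestinCreERT2;VEGFfloxed;ROSA-STOP-EYFP. All were 7 to 10 wk old at the start, received tamoxifen (TAM) at 180 mg/kg/d for 5 d and were taken 21 d after TAM. All mice of both groups thus carried CreERT2 under the Nestin promoter, the EYFP reporter and the TAM treatment, and they differed in the floxed Vegfa alleles, which recombine only where Nestin drives Cre. Mice of a pool cannot be told apart, other than by sex, so no spread between animals can be given.

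In the adult DG, neuroblasts descend from neural stem cells through intermediate progenitors and carry doublecortin (Dcx), Sox11 and Neurod1 on their way to granule neurons. Microglia are the resident macrophages of the brain, known by the fractalkine receptor Cx3cr1, the purinergic receptor P2ry12, Tmem119 and the complement chains C1qa, C1qb and C1qc. Fosb and Nav3, the markers given for this cluster, are an immediate early gene and a neuron navigator. Immediate early genes encode short-lived transcription factors such as the Fos and Jun subunits of AP-1, which cells switch on within minutes of a stimulus, cell dissociation included. Neuron navigators bind microtubules and act in the outgrowth of neurites.

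Levels below are means over cells of counts of unique molecular identifiers (UMIs) per 10000 UMIs of the cell. A ratio is the log2 of 1 level over another with a pseudocount of 0.01 added to both, so it understates the change of genes near 0. A gene was compared where its level reached 0.5 on either side, and it was counted as higher or lower where the ratio reached 0.5 in size. Each genotype has a lone library, so neither a replicate error nor a p-value can be given, and cells clustered by their expression cannot test that cluster against the rest. Intervals in parentheses are exact 95% intervals of UMI counts or of shares of cells and cover counting error only.

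The eNB cells were deeply sequenced, with 1890 to 11954 UMIs per cell. The median was 8969 UMIs and 3346 genes in WT cells, and 7722 UMIs and 3092 genes in iKD cells. In 11 of the 2169 cells the number of genes was under 2000. Over all clusters, the WT library held 5543 cells with a median of 8051 UMIs and the iKD library 5261 cells with a median of 7080. Of the barcodes, 9 occurred in both libraries, 4 of them in eNB cells.

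The label was checked against 16 lists of marker genes, the label's own pair among them, and the neuroblast list was close to absent. Its 8 genes (Dcx, Sox11, Igfbpl1, Neurod1, Neurod2, Calb2, Tubb3 and Cd24a) together had 26 UMIs in all 2169 cells, and none reached the level of 0.5. Dcx was found in 2 cells, Neurod1 in 4 and Sox11, the most frequent, in 7 cells or 0.32%. Progenitor genes were as rare. Eomes, Neurog2 and Tfap2c, factors of intermediate progenitors, and Sox2, a factor of neural stem cells, had a UMI in 0 of 2169 cells. Taken as 3 counts of 2169 cells, this allows up to 0.138% of cells with a UMI, which does not limit the share that express the gene. Nes, which encodes Nestin, had a UMI in 5 cells. The data thus did not bear out the name early neuroblast at the level of RNA, and the cells are called eNB below only as the label of their table.

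All 16 genes of the microglia list were detected, in 91.8% to 100% of eNB cells, with a median of 100%, and together they had 851948 UMIs. When each cell was thinned to 4500 UMIs, which left out 21 shallower eNB cells, the shares were 78.8% to 100%, with a median of 99.9%. In the cells of the cluster named astrocytes, thinned alike, the median share over the same list was 36.1%. Cx3cr1 was at 43.0 in WT and 38.6 in iKD cells, P2ry12 at 31.7 and 30.3, and Tmem119 at 11.9 and 11.2. The 10 genes with the highest level in eNB included Cst3, Malat1, Tmsb4x, C1qa, C1qb, Ctsd, Jun, Csmd3 and C1qc. Besides Malat1, a nuclear noncoding RNA, they include 3 complement chains, the protease inhibitor cystatin C (Cst3) and the protease cathepsin D (Ctsd).

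Markers of other cell types were rare, with a few exceptions within lists. Border macrophage genes had a UMI in at most 3.14% of eNB cells (Mrc1), and Lyve1, Cd163, F13a1 and Ms4a7 had none. Among astrocyte genes, the glutamate transporter Slc1a3 stood apart, with a UMI in 81.2% of cells and a level of 3.14, while Aqp4, Gja1 and Aldh1l1 were each in under 1%. Among granule neuron genes, Prox1 was in 13.7% of cells, but Rbfox3 in 0.78% and Calb1 in 2 cells. Mbp (22.1%) and Mag (16.5%) of the oligodendrocyte list and Pecam1 (16.9%) of the endothelial list were also present, whereas Mog was in 2 cells, and Cldn5 had no UMI. The choroid plexus list differed between the libraries and is given with the genotypes.

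**Figure D1:**
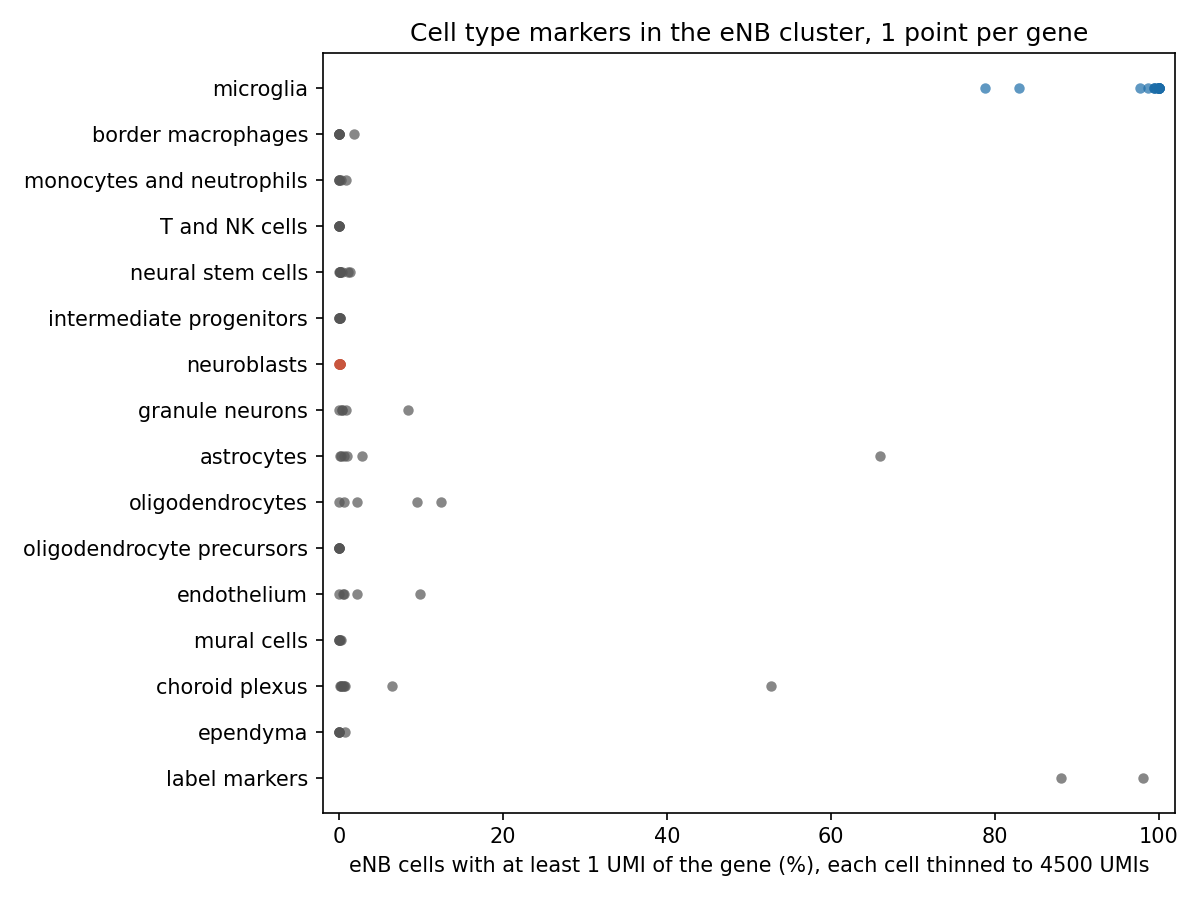
Shares of eNB cells with at least 1 UMI of each marker gene (horizontal axis, percent, each cell thinned to 4500 UMIs), with 1 row for each marker list and 1 point for each gene. The 16 microglia genes lie between 78.8% and 100%, the 8 neuroblast genes lie at or under 0.14%, and both genes of the label lie at 88.0% (Fosb) and 98.0% (Nav3).

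Both sexes were pooled in each library, and the share of female cells set eNB apart from some clusters. Cells with Xist, the noncoding RNA of the inactive X chromosome, and no Y-linked UMI were scored as female. In eNB this share was 93.3% in WT (91.6 to 94.7) and 87.4% in iKD (85.3 to 89.3). In IPC2 it was 0.77% and 14.6%, in NSPCs 69.7% and 72.2%, in IPC1 81.8% and 89.0%, and in NB 61.7% and 71.7%. Only 36 WT and 75 iKD eNB cells were scored as male, so values from male cells are much less precise. UMIs of both sexes, as a doublet of a female and a male cell would carry, occurred in 25 eNB cells or 1.15%. Because of this imbalance, the ratios of some genes and lists are also given for female cells alone. Where no such value is given, female cells alone can differ as well.

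To ask what set eNB apart, its levels were compared with the mean of 7 other clusters (NSPCs, IPC1, IPC2, NB, qNSC1, qNSC2 and aNSC), each weighted equally. Few genes differed. Of 3967 genes compared, 35 were higher in eNB (0.882%) and 48 were lower (1.21%), and the median ratio was 0.01. The microglia list held none of them. Its 16 genes had ratios from -0.26 to 0.20 with a median of 0.00, close to the median of all genes. The higher genes included Fosb and Klf4, and the lower genes included Ifit3, Ccl4 and Apoe.

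Klf4 and Fosb had the largest positive ratios. The level of Fosb, a subunit of AP-1, was 7.56 in WT and 7.70 in iKD eNB cells, and its ratio to the other clusters was 1.33 in WT and 1.11 in iKD. The same gene had a level of 4.86 in IPC2, 4.69 in NSPCs, 1.71 in IPC1 and 1.20 in NB. Thus eNB was highest of the 8 clusters by a ratio of 0.65 over the next. The cells overlapped all the same. Fosb ranged in eNB cells from 0 at the 5th percentile through a median of 6.91 to 18.2 at the 95th percentile, and 27.5% of IPC2 cells, 27.4% of NSPCs, 5.99% of IPC1 cells and 4.48% of NB cells lay above the eNB median. After thinning, Fosb was detected in 88.0% of eNB cells (86.6 to 89.4), 70.7% of NSPCs, 67.1% of IPC2 cells, 37.1% of IPC1 cells, 27.7% of NB cells and 16.7% of the cells of the astrocyte cluster.

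Klf4, a zinc finger factor best known from induced pluripotency, had a level of 5.69 in WT and 4.64 in iKD eNB cells. Its ratio to the other clusters was 1.29 in WT and 1.20 in iKD. IPC2 came next at 3.87, followed by NSPCs at 3.61, while IPC1 and NB stood at 1.07 and 0.87. Klf4 was detected in 72.7% of eNB cells, and 36.9% of IPC2 cells and 9.59% of NB cells lay above the eNB median of 2.98.

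Several genes outside the lists of the early response had ratios of similar size. Tmx4, a thioredoxin-like protein of the endoplasmic reticulum membrane, stood at 11.5 in WT and 11.3 in iKD cells, with a ratio of 1.14, with IPC2 next at 7.62. Ptpro, a receptor tyrosine phosphatase, had levels of 6.83 and 6.89 and a ratio of 0.97. Rnf19b, an E3 ubiquitin ligase, had levels of 5.96 and 6.05 and a ratio of 0.78. For each of these genes IPC2 had the next highest level, and NB the lowest of the 8 clusters, with levels of 3.15 for Tmx4, 2.26 for Ptpro and 1.18 for Rnf19b. Creb5, a bZIP factor that binds cAMP response elements, had levels of 1.71 and 1.79 and a ratio of 0.85. The remaining genes among the 15 with the largest ratios were expressed at lower levels. They were the noncoding RNAs Gm48089 (0.999), Gm34455 (0.91), Gm26887 (0.83) and Gm34921 (0.78), Nhs (0.99), Zswim4 (0.85), the GTPase-activating protein Dlc1 (0.70), the adaptor Bank1 (0.67) and Tsix.

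The ratios of the X-linked pair Xist and its antisense partner Tsix went with the sex of the cells. Xist had a ratio of 0.67 over all cells and 0.04 among female cells, and Tsix had 0.89 and 0.24. Nhs, on the X chromosome as well, kept a ratio of 0.82 among female cells. Fosb (1.17), Klf4 (1.20) and Tmx4 (1.09) changed little when only female cells were compared.

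**Figure D2:**
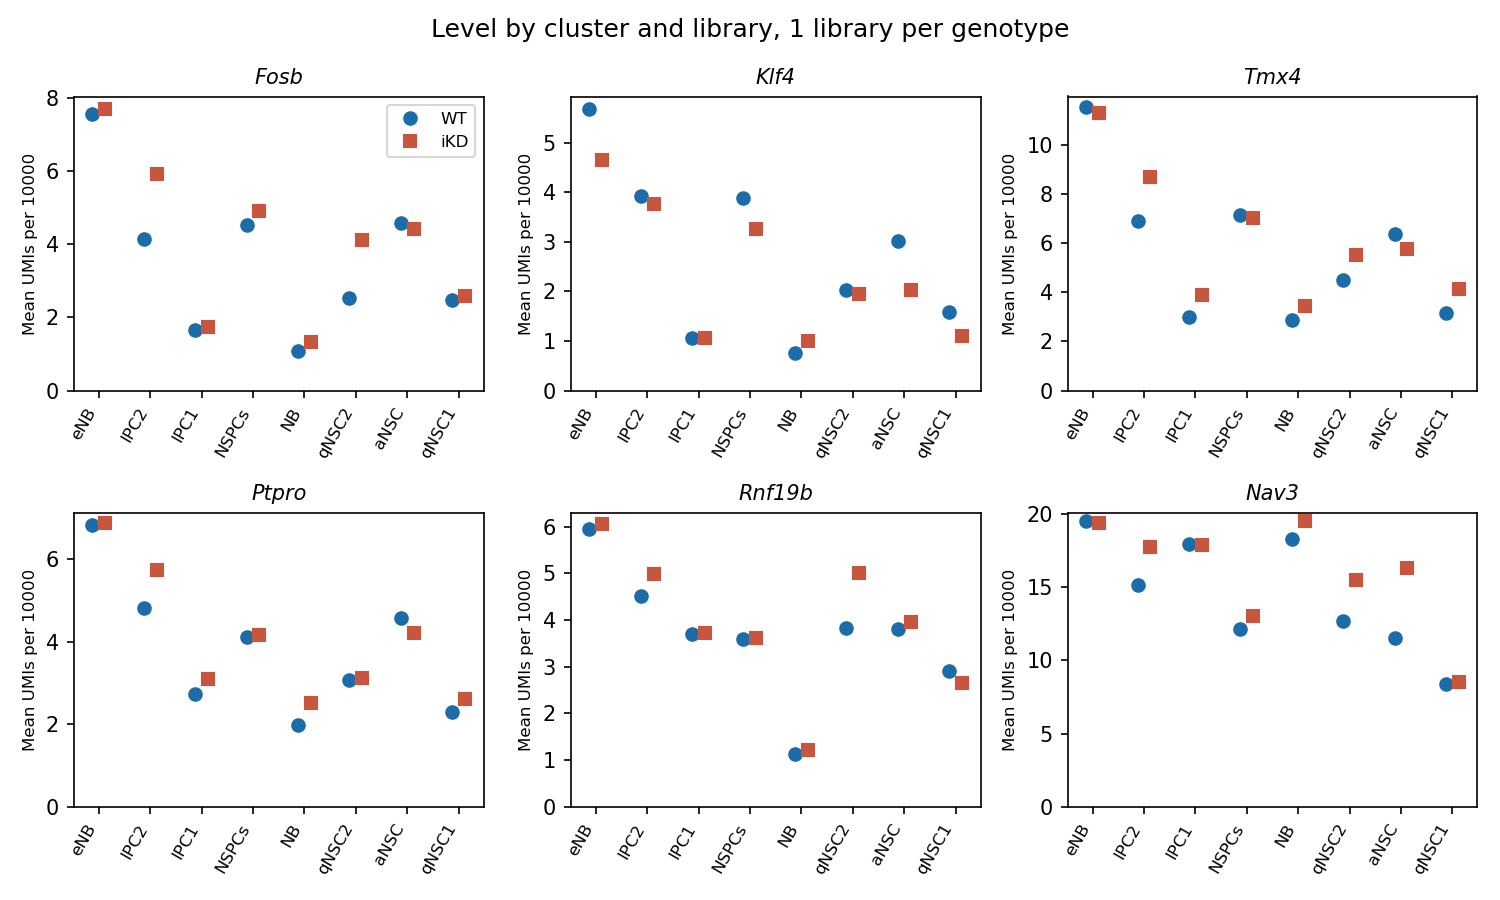
Levels (mean UMIs per 10000, vertical axes from 0) of 6 genes in eNB and 7 other clusters (horizontal axes), with 1 point for each library, WT as blue circles and iKD as red squares. Fosb, Klf4, Tmx4, Ptpro and Rnf19b are highest in eNB in each library, whereas Nav3 in eNB (19.4) is close to NB (18.9).

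Nav3, the other marker of the label, hardly separated eNB from NB and IPC1, but it differed more from NSPCs. Its level was 19.5 in WT and 19.4 in iKD eNB cells. It was 18.9 in NB, 17.9 in IPC1, 16.2 in IPC2 and 12.5 in NSPCs. In qNSC2, aNSC and qNSC1 it was 14.4, 13.2 and 8.44. Its ratio to the other clusters was 0.42, which is under the limit of 0.5, and its ratio to NB alone was 0.04. Of NB cells, 45.0% lay above the eNB median of Nav3, and of NSPCs 19.9%. Its relatives behaved alike, with ratios of 0.41 for Nav2 and 0.52 for Nav1. Nav3 lies on the minus strand of chromosome 10 (GRCm38, 109681259 to 110456204) and spans 775 kb, while Fosb spans 7.36 kb.

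Among the 35 higher genes, eNB had the highest level of the 8 clusters for 34, the exception being Rgs7bp, at rank 3. The next highest cluster was IPC2 for 13 genes, IPC1 for 8 and NB for 8. All 35 had a positive ratio within each library, and the ratio reached 0.5 for 32 in WT and for 25 in iKD. Among female cells it reached 0.5 for 27. Against the median of the 7 clusters in place of their mean, 29 of the 35 still reached it. The limit falls within a continuum of values, since Nos1ap (0.50) lay just inside it and Fos (0.50) and Zfp36l1 (0.49) just outside.

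Genes of the early response were then taken by list. Of the 9 AP-1 subunits listed, 6 passed the minimum level and all 6 had positive ratios with a median of 0.42, although only Fosb reached 0.5. Fos had a level of 21.4 in WT and 23.0 in iKD cells and a ratio of 0.50, with 21.3 in NSPCs and 2.36 in NB. Jun (46.7, ratio 0.42), Jund (0.36), Junb (0.20) and Atf3 (0.43) made up the rest. The 7 other immediate early genes compared had a median of 0.19 and none reached 0.5. For the 6 KLF factors compared the median was 0.18, with Klf4 the only one past 0.5. The 3 MAPK feedback genes compared, Dusp1, Dusp6 and Spred1, had a median of 0.29. A list of 21 genes known to rise on dissociation of tissue, of which 18 were compared, had a median of 0.20, with Rgs1 higher (0.54) and Ccl3 and Ccl4 lower. It shares Fos, Jun, Junb, Jund and Atf3 with the AP-1 list, and whether the handling of the cells has a part in their levels was not tested.

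Other lists held 1 gene past the limit or none. Purinergic receptors and their partners had a median of 0.06 over 7 genes, and CREB and ATF factors 0.05 over 7, with Creb5 the only one higher. The TGF-beta and Smad list had 8 of 9 ratios above 0 and a median of 0.15. Heat shock genes and chaperones had a median of -0.27 over 7 genes, none of which reached the limit.

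Of the 48 lower genes, those of the interferon response had the largest ratios. Ifit3, Ifitm3 and Isg15, which cells switch on through interferon receptors, had ratios of -4.37, -4.34 and -3.29. Ifit3 had 15 UMIs in WT and 14 in iKD eNB cells, and its level was 0.02 in eNB and 3.47 in aNSC. Of the 12 interferon-stimulated genes listed, 4 were compared, Ifit3, Isg15 and Bst2 among them. Of the 4, 3 reached the minimum level only through the other clusters, where they had to be higher, so their count says nothing of the list. Bst2 was at 0.74 in eNB, and each of the 4 was highest in aNSC, Bst2 at 7.56. Among the other 6 clusters of the reference the level of Ifit3 was also at most 0.04, so the ratio rests on aNSC.

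Of 14 chemokines and cytokines listed, 5 were compared. With a level of at least 0.5 in eNB itself were 4 of them, and 3 of those were lower, beside 1.21% of all genes. That share is over genes that reached 0.5 on either side, so the filters are not alike. Ccl4, a chemokine that attracts T cells and monocytes, had a level of 1.05 in WT and 1.13 in iKD eNB cells and 26.7 in qNSC1. Ccl3 had 0.48 and 0.68 in eNB and 9.42 in qNSC1. Over both libraries, eNB was at 1.09 for Ccl4 and 0.58 for Ccl3. NB, at 0.25 and 0.15, and IPC2, at 0.88 and 0.53, lay below it. Apart from qNSC1, the remaining clusters of the reference had Ccl4 at 1.22 to 2.38. Cd74, the invariant chain of major histocompatibility complex class II, had a ratio of -2.64. Its level in eNB was 0.10, so it reached the minimum level only through the other clusters, where it had to be higher. The class I genes H2-D1 and H2-K1 had ratios of -0.76 and -0.58. They were 2 of the 3 antigen presentation genes that reached 0.5 in eNB itself, beside 1.21% of all genes that reached it on either side.

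The list of disease-associated microglia, the genes that microglia turn on around plaques and dying cells, had 4 of 8 compared lower and none higher, with a median of -0.44, beside 1.21% and 0.882% of all genes. Apoe, the main lipid carrier of the brain, was at 3.09 in WT and 4.39 in iKD eNB cells, against 15.3 in qNSC2 and 14.0 in qNSC1. It was at 5.55 in aNSC, 4.46 in NB and 3.94 in NSPCs, and lower than in eNB in IPC1 (2.84) and IPC2 (1.97). The tetraspanin genes Cd63 (-0.82) and Cd9 (-0.51) and the cathepsin gene Ctsb (-0.54) were the other 3. Their ratios rest mostly on qNSC1, where Cd63 was at 13.09, Cd9 at 22.98 and Ctsb at 25.03. Elsewhere in the reference, Cd63 was at 1.92 to 2.78, on both sides of its 2.18 in eNB. Cd9 was at 7.05 to 8.87 there, beside 6.92 in eNB, and Ctsb at 7.99 to 9.98, beside 7.78. Against the median of the 7 clusters, none of the 4 genes reached the limit. Among male cells the ratio of Apoe was 0.02, in place of -0.87 over all cells.

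The lower genes were mostly high in another cluster rather than low in eNB. The highest level of the 48 was in aNSC for 21, in qNSC1 for 16 and in qNSC2 for 11. The level in eNB was the lowest of the 8 clusters for 12, among them Bst2, Slfn2, Tspo, Lgals3bp, H2-K1 and Ctsb. Against the median of the 7 clusters only 8 of the 48 reached the limit, namely Emp3, Ifitm3, Bst2, Slfn2, Ccl3, Lgals3bp, Nfkbia and Tspo. These 8 were picked out after their values were seen.

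**Figure D3:**
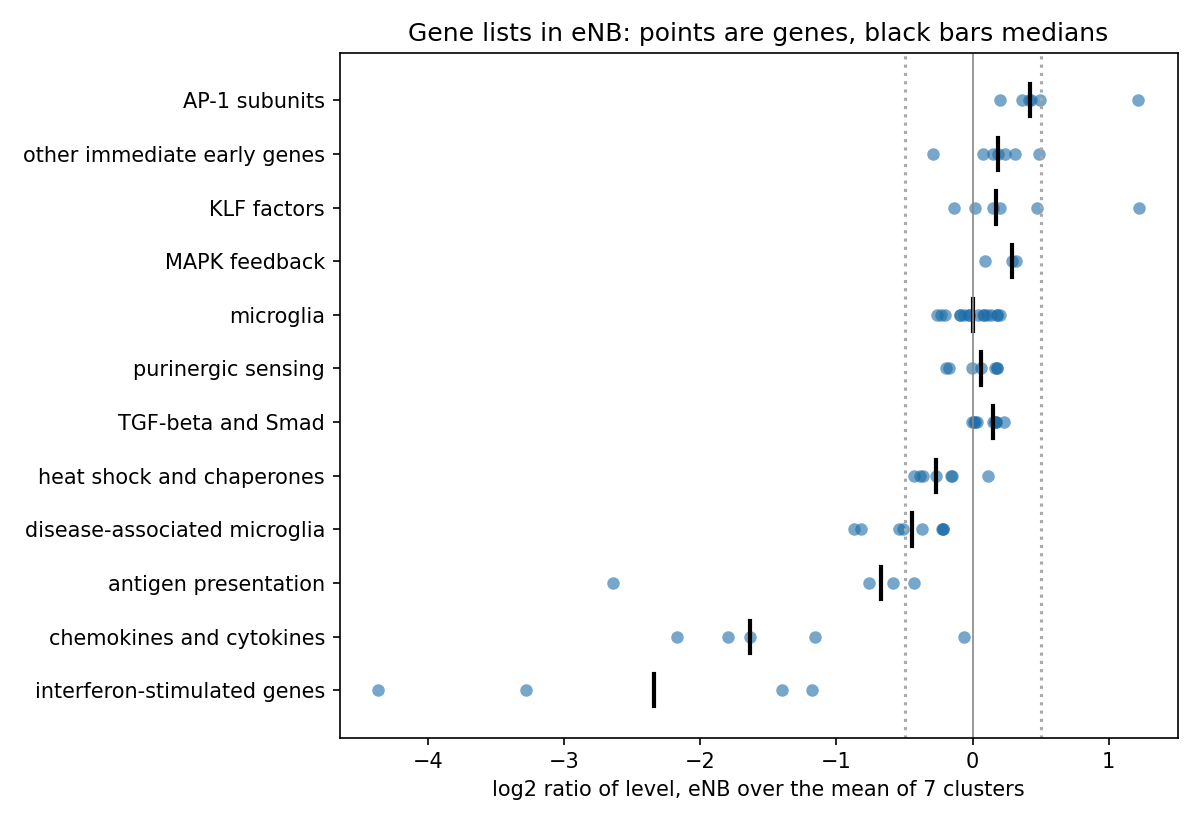
Ratios of eNB over the mean of 7 clusters (horizontal axis, log2) for the genes of 12 lists (vertical axis), with 1 point for each gene compared, a black bar at the median of each list and dotted lines at -0.5 and 0.5. The AP-1 genes lie to the right of 0 with a median of 0.42, the microglia genes around 0, and the chemokine and interferon genes to the left, some of them compared only through their level in the other clusters.

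The ratios varied with the length of genes. From genes that span under 5 kb to genes over 200 kb, the median ratio rose in steps from -0.17 to 0.20, with -0.01 for genes of 20 to 50 kb. Across 3950 genes with a known span, Spearman's correlation was 0.62 between span and ratio, 0.57 in WT, 0.60 in iKD, 0.59 among female cells and 0.37 among the few male cells. Genes are not independent replicates, and all of these points share the same libraries. Of the 35 higher genes 34 had a span, and 17 of those spanned over 100 kb, whereas 32 of the 48 lower genes spanned under 20 kb. The genes of cytosolic ribosomal proteins are short, and 76 of 77 had a ratio under 0, with a median of -0.25, although none reached the limit. Fosb and Klf4 are short genes and had large positive ratios nonetheless. Introns take up most of a long gene, and whether the share of unspliced RNA has a part in these ratios was not tested.

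**Figure D4:**
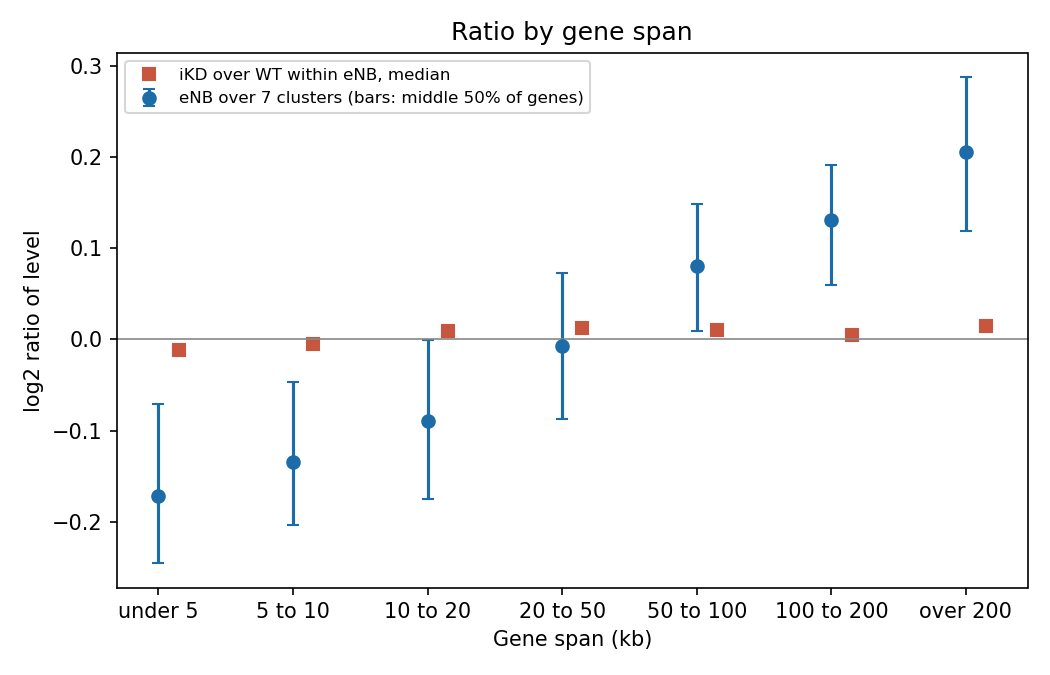
Median log2 ratio of eNB over 7 clusters (blue circles, bars for the middle 50% of genes) and of iKD over WT within eNB (red squares) for genes grouped by span in kb (horizontal axis). The first rises from -0.17 to 0.20 with span, while the second stays between -0.01 and 0.02.

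The eNB cells were also compared with single clusters, namely IPC2, NB and NSPCs, and IPC1, which was added after its values were seen. The median size of the ratio over genes was 0.06 against IPC2, 0.07 against IPC1 and 0.13 against NB. Against NSPCs it was 0.26, which is larger than against qNSC2 (0.15), aNSC (0.16) or IN1 (0.17). Against IPC2, 14 of 3914 genes were higher in eNB (0.358%) and 20 were lower (0.511%). Xist, Tsix and the X-linked genes Nhs and Kdm6a were among the 14, and the Y-linked genes Ddx3y, Eif2s3y and Uty among the 20. The share of cells scored female was 93.3% in WT eNB and 0.77% in WT IPC2, and its part in these ratios was not tested. Fosb, with a ratio of 0.65, and Creb5, with 0.61, were also higher. In WT, Fosb was at 7.56 in eNB and 4.14 in IPC2. In iKD it was at 7.70 and 5.93, a difference in the same direction but under the limit. Ddit4 and Fkbp5, which respond to glucocorticoids, were among the lower genes, but only through the WT library. In WT, Ddit4 was at 0.76 in eNB and 2.43 in IPC2, and Fkbp5 at 4.15 and 9.85. In iKD, Ddit4 was at 0.74 and 0.87, and Fkbp5 at 3.81 and 3.67, so neither was past the limit there and the direction of Fkbp5 turned.

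Against IPC1, whose cells were also mostly female, 24 of 3912 genes were higher in eNB (0.613%) and 19 were lower (0.486%). Klf4 had a ratio of 2.26, Fosb of 2.16, Gm26887 of 2.07, Tmx4 of 1.71, Gm34455 of 1.27 and Ptpro of 1.22. The lower genes included Ier3 (-1.38), the histone gene Hist1h2ac (-1.29) and Errfi1 (-1.02), a feedback inhibitor of the EGF receptor. When only female cells were compared, 22 were higher and 17 lower.

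Against NB, 179 of 4066 genes were higher in eNB (4.4%) and 21 were lower (0.516%). Immediate early genes had large ratios here, with 3.23 for Fos, 2.84 for Atf3, 2.82 for Dusp1, 2.70 for Klf2, 2.66 for Fosb and 2.25 for Egr1. Against NSPCs, 376 of 4027 were higher (9.34%) and 32 were lower (0.795%). The higher genes were led by Tsix, Nhs, Fgf13, Cep112 and Nbea, and the lower genes by Atp5k, Atp5mpl, Tspo and Aldoa, which serve mitochondria and glycolysis. Ratios to NSPCs went with gene span more closely than the others, with a Spearman's correlation of 0.82 and medians from -0.35 for genes under 5 kb to 0.57 for genes over 200 kb. For IPC1, IPC2 and NB, this correlation was 0.55, 0.39 and 0.12. Fosb was 1 of the genes past the limit in each of these comparisons, with a ratio of 0.70 against NSPCs.

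Promoter sequence is shown for the marker gene Fosb and for Creb5, whose product belongs to the family that binds cAMP response elements. Promoters of 300 bases, most of them before the transcription start, were taken from RefSeq on GRCm38.p6. They were searched on both strands for the AP-1 site TGACTCA, the cAMP response element TGACGTCA and the serum response element by name. Of the 15 genes with the largest ratios, 11 had a promoter in the table. The only matches were in 2 alternative promoters of Creb5, 1 with the cAMP response element and 1 with the AP-1 site, each starting 45 bases before the transcription start. Over all 32851 promoters, 1.79% held the cAMP response element, 5.20% the AP-1 site and 1.63% the serum response element. A match is no evidence of binding. Matches are in capitals below.

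Fosb promoter (GRCm38.p6, chr7:19309996-19310295, minus strand): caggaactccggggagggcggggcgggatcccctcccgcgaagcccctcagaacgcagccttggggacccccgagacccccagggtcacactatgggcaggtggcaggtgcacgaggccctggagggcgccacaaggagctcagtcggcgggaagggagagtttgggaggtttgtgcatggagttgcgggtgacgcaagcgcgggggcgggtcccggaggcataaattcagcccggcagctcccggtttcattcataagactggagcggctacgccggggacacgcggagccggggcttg

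Creb5 promoter with the cAMP response element (GRCm38.p6, chr6:53287053-53287352, plus strand): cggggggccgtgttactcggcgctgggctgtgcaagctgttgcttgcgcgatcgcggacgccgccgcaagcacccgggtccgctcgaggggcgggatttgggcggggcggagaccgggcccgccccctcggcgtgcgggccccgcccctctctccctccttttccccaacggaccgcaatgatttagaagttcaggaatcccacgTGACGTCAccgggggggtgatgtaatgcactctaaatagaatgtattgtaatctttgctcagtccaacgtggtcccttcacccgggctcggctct

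Creb5 promoter with the AP-1 site (GRCm38.p6, chr6:53573124-53573423, plus strand): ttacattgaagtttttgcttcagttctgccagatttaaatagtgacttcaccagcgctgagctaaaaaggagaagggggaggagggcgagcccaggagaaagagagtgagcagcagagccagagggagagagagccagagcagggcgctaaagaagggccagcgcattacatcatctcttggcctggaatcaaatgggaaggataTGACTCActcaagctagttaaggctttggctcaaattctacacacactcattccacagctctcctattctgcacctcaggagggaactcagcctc

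The eNB cells were then examined for differences among themselves. Each cell was thinned to 4500 UMIs, which kept 1054 WT and 1094 iKD cells, and the variance of each of 1897 genes beyond counting noise was divided by the squared mean. This excess had a median of 0.17 in each library. By the lower of the values of both libraries, it was largest for Adamts1 (12.3), a secreted metalloprotease, followed by Ccl4 (7.41), Apoe (5.65), Otud1 (2.98), Chka (2.26) and Cited2 (2.24). Klf4 had 1.04 in WT and 1.33 in iKD cells and Tmx4 had 1.02 and 0.99. Fosb, at 0.34 and 0.30, and Nav3, at 0.24 in both, varied less, and P2ry12 hardly varied, at 0.06 and 0.07.

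Correlations with Fosb from cell to cell were weak. Spearman's correlation across thinned cells was 0.14 in WT and 0.17 in iKD for Jun, 0.14 and 0.14 for Ptpro, 0.12 and 0.12 for Tmx4, 0.14 and 0.10 for Klf4, and 0.09 and 0.17 for Fos. The 10 genes with the highest lower value of both libraries also held Ywhaz, Jund, Klf2, Ubb and Dusp1, and 6 of the 10 stand in a list of the early response. Nav3 went with other genes, with 0.24 and 0.23 for Plxdc2, 0.23 and 0.27 for Csmd3, 0.18 and 0.20 for Numb and 0.15 and 0.17 for P2ry12. Between Fosb and Nav3 it was 0.06 in WT and -0.02 in iKD. In sparse counts such weak values describe these cells and are no finding, and the cells of a library share their depth and preparation.

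Loss of Vegfa from Nestin-derived cells was the question of the experiment, so Vegfa was examined first in the comparison of genotypes. Vegfa was barely detected in eNB. It had 22 UMIs in 17 of 1059 WT cells, or 1.61% (0.94 to 2.56), and 14 UMIs in 14 of 1110 iKD cells, or 1.26% (0.69 to 2.11). The ratio of iKD over WT was -0.40 with an interval from -1.48 to 0.63, so a difference was not detectable at this depth. After thinning, the shares were 1.14% and 0.64%. Of the VEGF receptors, Kdr had 53 UMIs in WT and 46 in iKD cells and Flt1 had 9 and 12. The level of the coreceptor Nrp1 was 1.76 in WT and 1.61 in iKD (ratio -0.13, -0.23 to -0.02), and that of Nrp2 was 0.56 and 0.70 (0.30, 0.13 to 0.47).

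Between genotypes, eNB cells differed in few genes. Of 3922 genes compared, 6 were higher in iKD (0.153%) and 3 were lower (0.0765%), or 5 and 4 when the libraries were scaled by the median ratio over genes. In all, 3757 (95.8%) lay within 0.25 in either direction. The median size of the ratio was 0.07. None of the 35 genes that were higher in eNB passed the limit, and their ratios of iKD over WT ran from -0.49 to 0.40 with a median of -0.03. Fosb had a ratio of 0.03 (-0.02 to 0.07), Tmx4 of -0.03, Ptpro of 0.01 and Nav3 of -0.01. Klf4 was at -0.29 (-0.35 to -0.23), and at -0.31 among female cells. Of the 35, 11 had intervals below 0 and 3 above, beside 11.6% and 13.2% of all genes compared. Intervals narrow as UMIs rise, so such shares depend on level too, and the genes were not matched for it.

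Ttr, which encodes transthyretin, a thyroid hormone carrier made by the choroid plexus, exceeded all other genes by far. Its level was 0.12 in WT and 9.89 in iKD eNB cells, from 112 and 8435 UMIs, a ratio of 6.23 (5.97 to 6.52). It was present in 9.44% of WT cells and 99.9% of iKD cells, so nearly all iKD cells carried it, and from the 5th to the 95th percentile they ranged from 3.95 to 17.2. The other 7 choroid plexus genes listed moved the same way at far lower levels, with a summed level of 0.01 in WT and 0.41 in iKD, of which Enpp2 made up most with 7 and 259 UMIs. In the 7 other clusters the ratio of Ttr was between 5.72 and 6.34, as in eNB. The astrocyte cluster had a level of Ttr of 1019 and held 4 WT and 130 iKD cells. In the iKD library there were 32.6 Ttr UMIs for each Enpp2 UMI in eNB and 22.7 in the astrocyte cluster. The part of RNA from such cells in the Ttr of eNB was not tested.

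The other 5 higher genes had ratios close to the limit. Sult1a1, a sulfotransferase, was at 0.63 in WT and 0.98 in iKD (ratio 0.63, 0.48 to 0.78). Mlph, a melanosome transport adaptor, had 1.04 and 1.55 (0.58), and Dennd2c had 0.36 and 0.54 (0.57). Ccl3 had 0.48 and 0.68 (0.51, 0.33 to 0.69), and Apoe had 3.09 and 4.39 (0.51, 0.44 to 0.58). In the plot of both genotypes these genes lie at the edge of the cloud of all genes. Among female cells alone Apoe had a ratio of 0.45, under the limit. Over the 7 other clusters the ratio of Apoe ran from -0.81 in NB to 1.35 in aNSC and that of Ccl3 from -0.51 in IPC1 to 0.61 in NB, each above 0 in 4 of 7. The 3 lower genes were Gt(ROSA)26Sor (1.09 in WT and 0.71 in iKD, ratio -0.62, -0.77 to -0.47), Tex14 (-0.55) and Rnaset2a (-0.50). Gt(ROSA)26Sor is a noncoding gene, annotated as antisense, at the locus that carries the EYFP reporter in mice of both groups. It lies on the minus strand of chromosome 6 (GRCm38, 113067428 to 113077333), and in the 7 other clusters the ratio was negative as well, from -0.08 to -0.70.

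**Figure D5:**
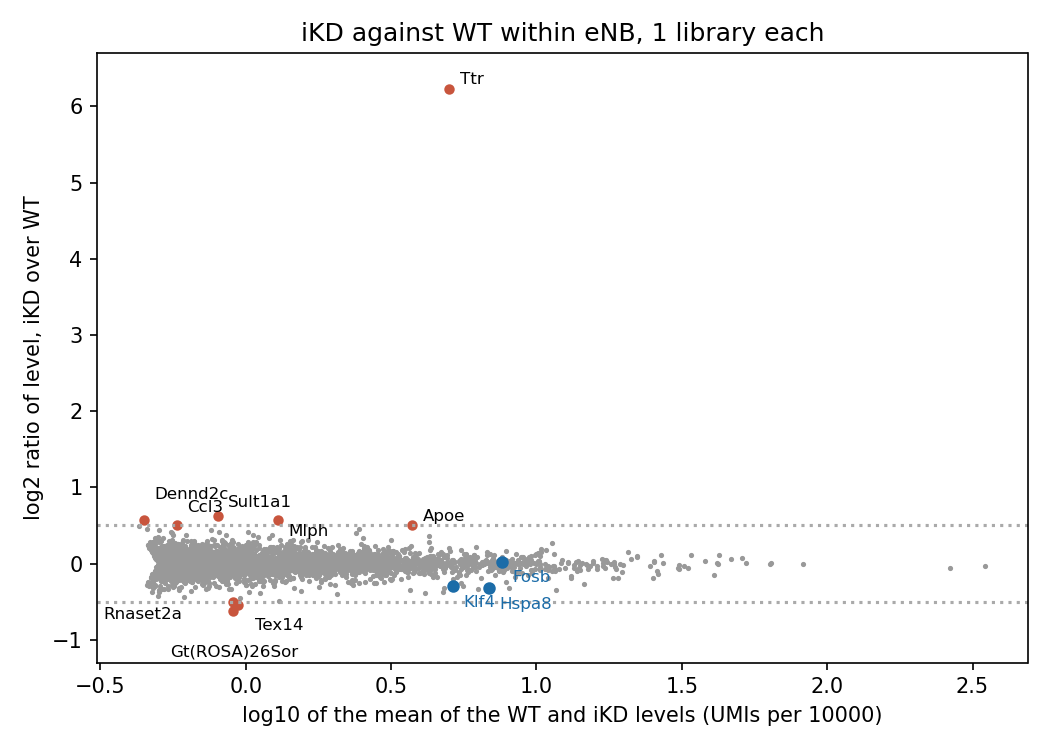
Ratio of iKD over WT in eNB cells (vertical axis, log2) against the mean level of both libraries (horizontal axis, log10 of UMIs per 10000), with 1 point for each of 3922 genes and dotted lines at -0.5 and 0.5. Red points mark the 9 genes past the limit, of which Ttr stands apart at 6.23, and blue points mark Fosb, Klf4 and Hspa8.

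Small differences of 1 direction ran through the compared genes of some lists. Of 11 heat shock genes and chaperones listed, 7 were compared, and all 7 were lower in iKD eNB cells with intervals below 0. Their ratios ran from -0.32 to -0.13 with a median of -0.18. Of all genes compared, 11.6% had an interval below 0. The level of Hspa8, a constitutive chaperone, was 7.65 in WT and 6.12 in iKD. That of Hsp90ab1 was 7.58 and 6.23. None of these 7 reached the limit, and the ratio of Hspa8 was negative in the 7 other clusters too, from -0.16 to -0.49. Below the minimum level, Hspa1a had 221 UMIs in WT and 73 in iKD, Hspa1b 72 and 4, and Hsph1 209 and 131. Hspb1 went the other way, with 90 and 125. The eNB cells held 9423752 UMIs in WT and 8659636 in iKD in all. Of the 16 microglia genes, 14 had ratios below 0 (median -0.08), with -0.20 for Fcrls, -0.19 for Gpr34 and -0.16 for Cx3cr1, and 9 had intervals below 0, beside the same 11.6%. All 3 MAPK feedback genes lay above 0, with 0.29 for Spred1, 0.28 for Dusp1 and 0.04 for Dusp6. Of the 6 AP-1 genes, 4 had intervals above 0, beside 13.2% of all genes, and the ratios were at most 0.18. The median over all genes was 0.01, and with 1 library per genotype such shifts cannot be told apart from a difference between preparations.

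The glucocorticoid genes Ddit4 and Fkbp5, which passed the limit against IPC2 in the WT library alone, differed little between genotypes in eNB. Ddit4 had a ratio of iKD over WT of -0.04 in eNB and -1.48 in IPC2, and Fkbp5 of -0.12 and -1.42. The difference between the clusters was not tested.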

How the data were processed

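The authors deposited 1 table of natural log values for each of 12 clusters, computed as the log of 1 plus UMIs per 10000 UMIs of the cell. Per the labels, the submitters' processing notes list Cell Ranger 7.0.1 and Seurat 4.1.1 beside CASAVA 1.8.2, HISAT2 2.0.6, Subread, featureCounts and the build GRCh38, although the symbols are those of mouse. A mouse build is not given in the sources used here, nor whether intronic reads were counted. The methods state filters at 2000 and 5000 genes, but deposited cells hold 1004 to 3999 genes, and 496 of 10804 have under 2000, so the filter applied is unclear.

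UMI counts were recovered from the natural log values deposited by the authors. All 32261786 values above 0 came out whole within 0.01. Clusters and genotypes are those of the authors, no further cells were removed. No doublet caller was run, so doublets may remain, and leaving out likely doublets (cells with UMIs of both sexes and the 5% with the most genes in each library) was an alternative. Depth and its precision are given in the report. Ratios, limits and intervals are described there, and those of a ratio were made from the UMI sums of both libraries by the exact binomial method. Gene spans are from GENCODE release 21 (GRCm38), by symbol for 31424 of 32285 genes. The members and the gene lists, several of them taken over from earlier work on these files, were chosen with earlier results of these data known. Genes named were the 10 highest in level, the 15 highest and 10 lowest ratios of eNB over the 7 clusters, the 10 highest and 10 lowest of iKD over WT, the 10 most variable, the 10 most correlated with Fosb or Nav3, those with the largest ratios to each alike cluster, and genes of the lists. The values of 2 genes are not reported here.

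The steps were tested on simulated counts of iKD and WT eNB cells for 32285 genes, 200 of them changed. All 200 had the right direction, 191 lay within their interval, and 0 of 3603 unchanged genes passed the limit. This last count was made after taking out the known shift that the changed genes give to all ratios. With the shift left in, 50 of 50 genes changed by a log2 ratio of 1 passed the limit in each direction. Of 50 changed by 0.5 in each direction, 12 higher and 37 lower passed it. These counts hold for simulated cells only, which were drawn without variance beyond counting noise. How often unchanged genes pass the limit between the real libraries was not tested, since each genotype has 1 library. Python 3.11.15, numpy 2.4.6, scipy 1.17.1, pandas 2.3.3 and matplotlib 3.10.9 were used.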

Additional observations from a re-analysis of the deposited data

Results flagged for a closer look

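The ratio of iKD over WT was compared between female and male eNB cells for the 205 genes of the lists and rules. For 10 genes the sexes had opposite signs with both counting intervals clear of 0, and for 5 of these the sexes lay at least 0.5 apart. The purinergic receptor gene P2ry13 had -0.178 in female cells (-0.25 to -0.11) and 0.446 in male cells (0.11 to 0.80). Sdk1, a cell adhesion gene, had -0.301 in female and 0.743 in male cells. For Klf6 the ratio was 0.068 in female and -0.472 in male cells. Adamts1, the most variable gene of the cluster, had 0.345 and -0.829. For Tsc22d3, a glucocorticoid-induced gene, the ratios were 0.181 and -0.867. The male values rest on 36 WT and 75 iKD cells beside 988 and 970 female cells, the number of mice behind them is not known, and no test was made between the sexes.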

How the results depend on the processing

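No paired analysis was possible because each genotype had 1 library, and for the same reason no replicate could be left out. Of 734 values of named genes, lists and correlations under the alternatives, 440 stayed within a set tolerance of the value as reported. A further 289 moved past it with their sign kept or below the limit, and 5 reversed. The tolerance was the wider side of a counting interval for single genes, and a fixed value for list medians and correlations. Summed UMIs, a pseudocount of 0.001, median-ratio scaling, female cells only, thinning and leaving out likely doublets kept the counts of genes within 1.5 times. The counts of genes higher and lower in eNB, 35 and 48, became 7 and 12 with a pseudocount of 1, 63 and 357 against all 11 other clusters, 21 and 11 against the pooled cells, 118 and 135 with male cells only, 92 and 176 with a minimum level of 0.1, and 21 and 20 with a minimum of 1. Against the median of the 7 clusters, an alternative chosen after seeing the data, 5 genes were lower, since fewer then passed the minimum level. Leaving out each of the 7 clusters in turn, also chosen after seeing the data, gave 27 to 49 higher and 34 to 67 lower. The counts of iKD over WT, 6 and 3, became 1 and 0 with a pseudocount of 1, 452 and 450 with male cells only, 63 and 38 for the mean of the female and male ratios, and 54 and 36 with a minimum level of 0.1. With a minimum of 1, 3 genes were higher. Among male cells the ratio of Apoe over the other clusters reversed to 0.0156, and the ratios of iKD over WT reversed for Ccl3 (-0.5702), Sult1a1 (-0.2237) and Mlph (-0.2747). For Ccl3 the mean of the female and male ratios was -0.0028. Male cells are few and a minimum level changes which genes are compared, and beyond this the cause was not tested. A gene with a few UMIs in 1 library is limited by depth, as Vegfa is here.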

Other observations

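Other gene groups of the eNB cells showed small ratios. Of the NF-kB subunits and inhibitors, 6 genes were compared and only Nfkbia, the inhibitor that NF-kB itself induces, was past the limit (beside 1.21% of all genes lower), with a level of 2.31 in WT and 2.11 in iKD cells and a ratio to the other clusters of -0.65. The median of the list was 0.15, beside 0.01 for all genes compared. Of 8 glucocorticoid response genes compared, 1 was lower (the metallothionein gene Mt1, at -0.53) and the median was -0.12, with 0.02 among female cells. Of 10 cell cycle genes listed, 3 passed the minimum level, with a median of -0.15, and none passed the limit. Mitochondrially encoded genes had a median of -0.11 over 11 genes.

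Within the comparison of genotypes, 48 of 77 ribosomal protein genes had a ratio of iKD over WT below 0. Counting intervals lay below 0 for 33 of the 77 and above 0 for 3, beside 11.6% and 13.2% of all genes compared. These shares were not matched for level, and the median ratio was -0.04. The largest negative values near the limit were Gm48089 (-0.49), Dnaja1 (-0.40), mt-Nd3 (-0.39) and Rps27 (-0.38). Trem2, a lipid receptor of microglia, was at 15.9 in WT and 13.2 in iKD cells, a ratio of -0.27, with 0.11 among male cells. None of these genes passed the limit of 0.5.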
